A study of Mus musculus with 12 samples.

Results

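Of the 52636 genes in the tables, 8 are widely used to identify pericytes and other mural cells, and the RNA levels of these 8 were followed in cultured lung mesenchymal cells in which Klf4 was silenced: Cspg4, Rgs5, Kcnj8, Abcc9, Mcam, Des, Anpep and Vtn. They were given by name, with no threshold on their values, though with earlier results of these data known, and each matched 1 row in both tables. Bulk RNA-seq was done on 12 mouse libraries in 4 groups of 3: smooth muscle cells (SMCs) and PDGFR-β+ cells, each transfected with scrambled control RNA (Scr) or with a small interfering RNA against Klf4 (siKlf4). The SMCs were bought primary cells (from CellBiologics) of the C57BL/6 strain, named as lung airway SMCs in the titles and as tracheal SMCs in the source, with no age given. The PDGFR-β+ cells are labelled as lung cells of C57BL/6 mice at 12 weeks of age. The methods describe them as Zs+ lung cells, sorted after tamoxifen from mice carrying Pdgfrb-CreERT2, ROSA26R(Zs/+) and then passaged, so that the Pdgfrb promoter at the time of induction defined the population. In both cell types the labels call the Scr genotype WT and the siKlf4 genotype Klf4 KD. The study describes the 3 libraries of a group as independent experiments, and the labels do not say whether these were separate cultures or mice.

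Mural cells wrap the endothelial tube: pericytes line capillaries and share its basement membrane, and vascular SMCs surround larger vessels. No single gene defines a pericyte, and the usual markers cover several roles. Cspg4 (the proteoglycan NG2), Mcam (the adhesion molecule CD146) and Anpep (the aminopeptidase CD13) encode cell surface proteins. Kcnj8 and Abcc9 encode the pore and the regulatory subunit of the vascular ATP-sensitive potassium channel. Rgs5 encodes a regulator that shortens G protein signalling, Des the intermediate filament protein desmin, and Vtn the secreted matrix protein vitronectin. Several of these are also made by other mesenchymal cells and can change with culture.

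Values are transcripts per 1000000 (TPM). Reads are divided by transcript length and every library has an equal total, so levels of different genes can be set side by side. The unit does not hold sequencing depth, and the study gives a target yield per sample but, in the sources used here, not the yield reached. Between 20590 and 21780 genes were above 0 per library. Klf4 ranged from 89.6 to 96.3 TPM in Scr SMCs and from 16.3 to 26.5 TPM in siKlf4 SMCs. In PDGFR-β+ cells it ranged from 134 to 146 TPM and, after siKlf4, from 12.3 to 13.8 TPM. The depth of knockdown differed, by -1.19 on the log2(TPM + 1) scale (SE 0.19, adjusted p = 6.9e-04, limma), and was greater in PDGFR-β+ cells. For SMCs, 1 library of each treatment is unnumbered, and these libraries stood apart: the median absolute log2 difference was 0.186 and 0.197 between the unnumbered Scr library and replicates 2 and 3, against 0.107 between those. For siKlf4 SMCs it was 0.154 and 0.158 against 0.101. SMC values are given in the order unnumbered, replicate 2, replicate 3.

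The labelled cell types were checked against defining genes. Acta2 and Myh11, contractile smooth muscle genes, were present in SMCs (means of 1373 and 15.6 TPM with Scr) but were no lower in PDGFR-β+ cells (4369 and 20.8 TPM). Pdgfrb was 447 TPM in Scr PDGFR-β+ cells and 214 TPM in Scr SMCs. The fibroblast genes Pdgfra and Col1a1 were also high in both, with 417 and 1108 TPM in Scr SMCs and 169 and 1937 TPM in Scr PDGFR-β+ cells. The most defining markers of other lung cells were at or near 0, with group means of at most 0.244 TPM for Ptprc (leukocytes), 0.299 TPM for Pecam1 (endothelium), 0.0178 TPM for Epcam (epithelium) and 0.0437 TPM for Sox10 (glia). Other genes of these lists were not, with means in Scr SMCs and Scr PDGFR-β+ cells of 41.0 and 6.88 TPM for Cd14, 2.04 and 19.0 TPM for Lyz2, 0.663 and 15.3 TPM for Kdr, and 3.63 and 9.64 TPM for Mlana. The labels call neither population pericytes.

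In the annotation of GRCm38, the assembly of mm10, Cspg4 lies at chr9:56865033-56899870 and Mcam at chr9:44134469-44142727, both on the forward strand. Rgs5 (chr1:169655501-169695813) and Des (chr1:75360329-75368579) are on the forward strand of chromosome 1, Anpep on the reverse strand at chr7:79821803-79861059, and Vtn on the forward strand at chr11:78499091-78502324. Kcnj8 (chr6:142564837-142571614) and Abcc9 (chr6:142587862-142702315) are neighbours on the reverse strand, with 16247 bases between them and no other protein-coding gene of this annotation there. Des, Abcc9 and Mcam each overlap an antisense gene, and Anpep overlaps 1 short gene model on its own strand. These overlapping genes had group means of at most 0.241 TPM.

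Promoter sequence is shown for 4 members because they cover the patterns seen: Cspg4, which fell with siKlf4, Mcam, which rose, Kcnj8, which was under 1 TPM in PDGFR-β+ cells, and Rgs5, which did not pass a test. Each runs 5′ to 3′ from 250 bases before to 50 bases after the RefSeq start in GRCm38.p6. Capitals mark every match to CCNCNCCC on either strand, a pattern of the GC-rich elements that KLF family factors are known to bind.
Cspg4 promoter, chr9:56864854-56865153, forward strand: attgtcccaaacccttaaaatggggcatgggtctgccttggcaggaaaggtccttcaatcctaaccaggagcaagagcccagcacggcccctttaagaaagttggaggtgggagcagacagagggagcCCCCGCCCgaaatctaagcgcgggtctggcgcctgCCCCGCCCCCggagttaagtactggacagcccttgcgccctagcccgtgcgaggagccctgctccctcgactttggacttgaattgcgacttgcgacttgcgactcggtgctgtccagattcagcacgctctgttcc
Mcam promoter, chr9:44134408-44134707, forward strand: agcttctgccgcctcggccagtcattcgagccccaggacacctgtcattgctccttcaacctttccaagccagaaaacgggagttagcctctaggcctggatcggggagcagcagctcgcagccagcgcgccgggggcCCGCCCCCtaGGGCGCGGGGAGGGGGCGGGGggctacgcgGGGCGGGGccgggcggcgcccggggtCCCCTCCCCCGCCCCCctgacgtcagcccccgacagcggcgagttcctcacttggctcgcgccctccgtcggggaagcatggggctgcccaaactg
Kcnj8 promoter, chr6:142571565-142571864, reverse strand: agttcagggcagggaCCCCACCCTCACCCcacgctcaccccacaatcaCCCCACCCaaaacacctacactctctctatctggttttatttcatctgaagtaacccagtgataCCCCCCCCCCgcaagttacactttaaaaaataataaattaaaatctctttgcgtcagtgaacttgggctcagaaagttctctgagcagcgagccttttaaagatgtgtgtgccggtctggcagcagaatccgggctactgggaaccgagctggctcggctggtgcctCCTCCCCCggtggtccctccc
Rgs5 promoter, chr1:169655251-169655550, forward strand: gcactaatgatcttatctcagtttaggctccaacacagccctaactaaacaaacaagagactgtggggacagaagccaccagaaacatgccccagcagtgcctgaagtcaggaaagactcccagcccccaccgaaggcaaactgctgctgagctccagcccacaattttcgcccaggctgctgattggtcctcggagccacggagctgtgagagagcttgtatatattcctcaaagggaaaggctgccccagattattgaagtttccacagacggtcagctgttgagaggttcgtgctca

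The Mcam promoter held 10 matches to CCNCNCCC, Kcnj8 and Anpep 7 each, and Cspg4, Abcc9 and Des 3 each, while Rgs5 and Vtn held none. Thus 6 of the 8 members had the pattern, against 49.5% of 32851 mouse promoters of the same length. CACCC on either strand, which can overlap CCNCNCCC, was in 5 of 8 against 57.5% of promoters, CANNTG in 7 of 8 against 72.3%, and TGGGAA in 3 of 8 against 25.6%. The CArG box, the element of contractile genes, was in none of the 8 and in 1.63% of promoters. GC content was 72.7% in Mcam and 72.3% in Anpep, above 93.9% and 93.5% of promoters, and 52.3% in Rgs5, near the median of 52.7%. The matches describe letters only: Mcam and Cspg4, which moved in opposite directions, both held the pattern. The RefSeq start of Anpep lies 12849 bases from the GENCODE gene start, so its window belongs to another start than the one at the end of the gene.

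The first question was which markers each cell type held before silencing. The leading marker differed: Anpep led in Scr SMCs and Cspg4 in Scr PDGFR-β+ cells. In Scr SMCs, Anpep made up 77.4% of the summed TPM of the 8 genes, followed by Cspg4 and Mcam, whose ranges overlapped, then by Des, Kcnj8, Abcc9 and Rgs5, in which each neighbour overlapped the next, and last by Vtn. In Scr PDGFR-β+ cells, Cspg4 made up 58.6% of the sum, and Cspg4, Mcam and Anpep followed each other without overlap. Rgs5 and Des came next and overlapped, and Kcnj8, Abcc9 and Vtn were at or near 0. Cspg4 ranked above 76.3% of the genes above 0 in that group. These levels come from tables made separately, and cell type, source, mouse and the growth medium before transfection cannot be told apart in them. After transfection, the methods name supplemented SMC medium for both cell types. Where both cell types are compared, the same Scr libraries enter as in the siKlf4 comparisons.

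**Figure D1:**
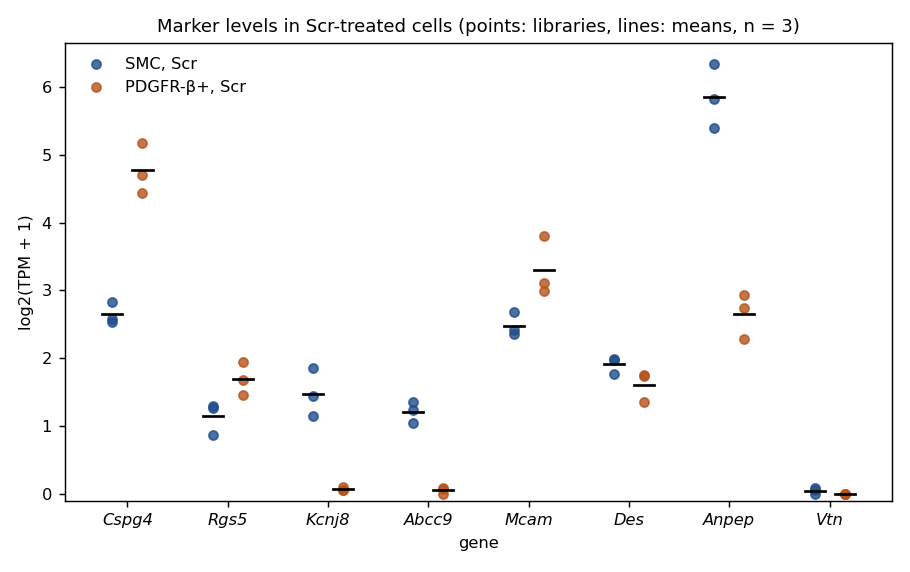
Levels of the 8 marker genes in Scr-treated cells, as log2(TPM + 1), with each of 3 libraries per cell type as a point and the mean as a line. PDGFR-β+ cells lie above SMCs for Cspg4, Rgs5 and Mcam and below them for Anpep, Kcnj8 and Abcc9, and Vtn is at or near 0 in both.

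Of the 5 members tested on Scr libraries (filtered on a mean of 1 TPM over these 6), 2 were higher and 1 was lower in PDGFR-β+ cells (limma on log2(TPM + 1), adjusted p under 0.05), where 47.7% of 13800 genes were called, 23.3% higher and 24.4% lower. The groups did not overlap for any of the 5, with 3 higher and 2 lower, against 58.6% of all genes tested, 28.4% higher and 30.3% lower. Cspg4 was 2.12 higher (SE 0.19, adjusted p = 9.6e-05, limma), a 5.08-fold ratio of mean TPM. Mcam was 0.82 higher (SE 0.22, adjusted p = 0.0175, limma), a call that was lost without Scr SMC replicate 3 (adjusted p = 0.0523), without the unnumbered Scr SMC library (0.0508) and with no filter on low values (0.0532). Anpep was lower, by -3.20 (SE 0.25, adjusted p = 5.3e-05, limma), with a mean 10.9-fold higher in SMCs. For Rgs5 the difference was 0.55 (95% confidence interval 0.09 to 1.01, adjusted p = 0.0503, limma). It passed the threshold without Scr PDGFR-β+ replicate 1 (adjusted p = 0.0469) and with eBayes without trend, in which the assumed spread does not depend on level (0.0337). For Des the difference was -0.30 (interval -0.68 to 0.09, adjusted p = 0.178, limma), although the 2 sets of 3 libraries did not overlap.

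Kcnj8 and Abcc9, the channel pair, were measured in SMCs and were at or near 0 in PDGFR-β+ cells. Kcnj8 was 1.21, 1.73 and 2.61 TPM in Scr SMCs, and 0.0724, 0.0381 and 0.0423 TPM in Scr PDGFR-β+ replicates 1 to 3. Abcc9 was 1.55, 1.07 and 1.36 TPM in Scr SMCs, and was listed at 0, 0.0647 and 0.0503 TPM in Scr PDGFR-β+ cells. Both genes were below the filter in this comparison. With no filter they were lower in PDGFR-β+ cells, by -1.41 for Kcnj8 (adjusted p = 0.00274, limma) and -1.16 for Abcc9 (adjusted p = 6.5e-04, limma). Their flanking genes did not share this absence, with means of 127 TPM for Ldhb and 42.0 TPM for Cmas in Scr SMCs and 51.8 and 54.8 TPM in Scr PDGFR-β+ cells. The paralogous pair that forms the pancreatic channel was not a substitute, since Kcnj11 was listed at 0 in every library and Abcc8 had group means of at most 0.0168 TPM.

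With siKlf4, the surface markers moved in both cell types and in different directions. In SMCs, 7 members could be tested: Mcam was higher, Cspg4 and Anpep were lower, and Des, Rgs5, Kcnj8 and Abcc9 did not pass the threshold. Over all 13709 genes tested in SMCs, 28.5% were called, 15.6% higher and 12.9% lower. In PDGFR-β+ cells 5 members could be tested: Mcam was higher, Cspg4, Des and Anpep were lower, and Rgs5 did not pass. There 40.6% of 13694 genes were called, 25.3% higher and 15.3% lower. The groups did not overlap for 4 of 7 members in SMCs and for 4 of 5 in PDGFR-β+ cells, against 47.1% of all genes tested in SMCs (25.6% higher and 21.5% lower) and 53.8% in PDGFR-β+ cells (33.9% higher and 19.8% lower). The median difference of the tested members was -0.23 in SMCs and -0.65 in PDGFR-β+ cells, beside 0.02 and 0.10 for all genes. In bulk RNA, fewer cells of a type and less RNA per cell cannot be told apart. An exact permutation test of 3 libraries against 3 cannot go below p = 0.1 (two-sided).

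**Figure D2:**
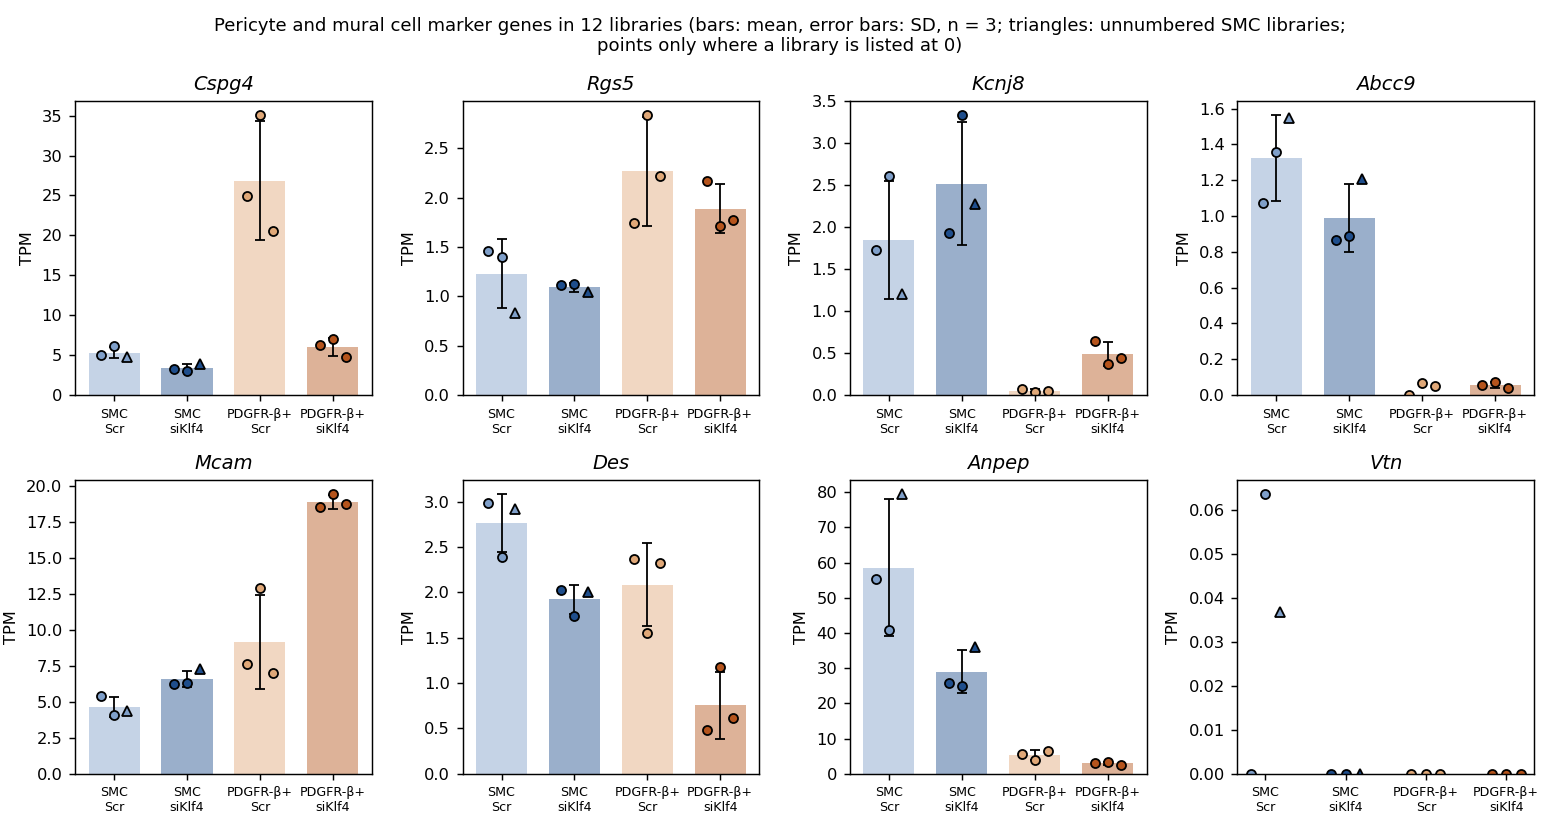
TPM of each marker gene in the 12 libraries, with bars for the mean, error bars for the SD (n = 3) and points for libraries, triangles being the unnumbered SMC libraries. Each panel has its own axis from 0. Cspg4 falls from 26.9 to 6.00 TPM and Mcam rises from 9.18 to 18.9 TPM in PDGFR-β+ cells.

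Cspg4 fell in both cell types, and further in PDGFR-β+ cells. In SMCs it was 4.81, 4.97 and 6.09 TPM in Scr and 3.88, 3.29 and 2.94 TPM in siKlf4 libraries. In PDGFR-β+ replicates 1 to 3 it was 24.9, 35.1 and 20.6 TPM in Scr and 6.22, 6.97 and 4.81 TPM in siKlf4 libraries. All siKlf4 libraries were below all Scr libraries of their cell type. The mean left was 63.7% of Scr in SMCs (5.29 ± 0.698 against 3.37 ± 0.475 TPM, SD, n = 3) and 22.3% in PDGFR-β+ cells (26.9 ± 7.46 against 6.00 ± 1.10 TPM, SD, n = 3). The difference was -0.53 in SMCs (SE 0.14, adjusted p = 0.0311, limma) and -1.97 in PDGFR-β+ cells (SE 0.20, adjusted p = 3.4e-04, limma), and the effects differed by -1.45 (SE 0.26, adjusted p = 0.00152, limma). After silencing, PDGFR-β+ cells thus held Cspg4 at 4.81 to 6.97 TPM, a range that overlaps that of Scr SMCs. The PDGFR-β+ call was kept in all 12 alternatives. The SMC call was lost without Scr replicate 2 (adjusted p = 0.0697), Scr replicate 3 (0.0898), siKlf4 replicate 2 (0.0900) or siKlf4 replicate 3 (0.101), and with no filter (0.0945). It was also lost with the replicate block on numbered libraries.

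Mcam, the other adhesion marker, rose where Cspg4 fell. In SMCs it was 4.32, 5.42 and 4.11 TPM in Scr and 7.25, 6.25 and 6.28 TPM in siKlf4 libraries. In PDGFR-β+ cells it was 7.64, 12.9 and 6.97 TPM in Scr and 18.5, 19.5 and 18.7 TPM in siKlf4 libraries. The siKlf4 libraries were above the Scr libraries in both, and Scr PDGFR-β+ replicate 2 lay far above the other two. Means rose from 4.62 ± 0.700 to 6.59 ± 0.568 TPM in SMCs and from 9.18 ± 3.26 to 18.9 ± 0.489 TPM in PDGFR-β+ cells (SD, n = 3), 1.43-fold and 2.06-fold. The difference was 0.44 in SMCs (SE 0.13, adjusted p = 0.0445, limma) and 1.01 in PDGFR-β+ cells (SE 0.20, adjusted p = 0.00618, limma). The PDGFR-β+ call was kept in all 12 alternatives, and the effects were not shown to differ between the cell types (0.57, 95% confidence interval 0.02 to 1.13, adjusted p = 0.105, limma). Without Scr PDGFR-β+ replicate 2 that difference was 0.82 (adjusted p = 0.00359). The SMC call was lost without the unnumbered Scr (adjusted p = 0.0936) or siKlf4 library (0.116), Scr replicate 3 (0.118), siKlf4 replicate 2 (0.0939) or siKlf4 replicate 3 (0.0954), with no filter (0.120), with numbered libraries alone (0.162) and with median-ratio scaling (0.0509). It was also lost with the replicate block on numbered libraries (0.190).

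Anpep fell in both cell types, from very different levels. In SMCs it was 79.6, 55.3 and 40.9 TPM in Scr and 36.0, 25.9 and 25.0 TPM in siKlf4 libraries. In PDGFR-β+ cells it was 5.66, 3.86 and 6.60 TPM in Scr and 3.03, 3.44 and 2.55 TPM in siKlf4 libraries. The groups did not overlap in either, and the unnumbered SMC library was the highest of its group on both sides. The mean left was 49.4% of Scr in SMCs (58.6 ± 19.6 against 29.0 ± 6.11 TPM, SD, n = 3) and 56.0% in PDGFR-β+ cells (5.37 ± 1.39 against 3.01 ± 0.444 TPM, SD, n = 3). The difference was -0.96 in SMCs (SE 0.25, adjusted p = 0.0269, limma) and -0.65 in PDGFR-β+ cells (SE 0.19, adjusted p = 0.0278, limma), with 0.31 between them (95% confidence interval -0.42 to 1.04, adjusted p = 0.508, limma). The SMC call was lost without Scr replicate 2 (adjusted p = 0.0696), siKlf4 replicate 2 (0.0837) or siKlf4 replicate 3 (0.0846) and with no filter (0.0712). The PDGFR-β+ call was lost without Scr replicate 1 (0.0827), Scr replicate 3 (0.0815), siKlf4 replicate 1 (0.0633) or siKlf4 replicate 3 (0.0859), with no filter (0.0844) and with the replicate block.

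Des, the filament gene, fell in PDGFR-β+ cells. It was 2.37, 1.56 and 2.32 TPM in Scr and 0.478, 1.17 and 0.618 TPM in siKlf4 libraries, so that its mean of 2.08 ± 0.458 TPM went to 0.756 ± 0.368 TPM (SD, n = 3). The difference was -0.82 (SE 0.21, adjusted p = 0.0165, limma). It passed the filter there through its Scr libraries, which limits what the call can show, and the difference was -1.41 with a pseudocount of 0.1. The call was lost without Scr replicate 1 (adjusted p = 0.0585), Scr replicate 3 (0.0559) or siKlf4 replicate 3 (0.0532). In SMCs Des was 2.92, 2.99 and 2.39 TPM in Scr and 2.00, 2.03 and 1.74 TPM in siKlf4 libraries. These groups did not overlap, with a difference of -0.36 (95% confidence interval -0.69 to -0.04, adjusted p = 0.0884, limma, and 0.0355 with eBayes without trend), and the effects were not shown to differ between cell types (-0.46, interval -0.99 to 0.08, adjusted p = 0.172, limma).

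Neither Kcnj8 nor Abcc9 passed the test for siKlf4 in SMCs, and both were under the filter in PDGFR-β+ cells. In SMCs, Kcnj8 was 2.27, 1.94 and 3.34 TPM in siKlf4 libraries, which overlapped Scr, with a difference of 0.31 (95% confidence interval -0.24 to 0.86, adjusted p = 0.350, limma). In PDGFR-β+ cells it was 0.644, 0.368 and 0.437 TPM in siKlf4 libraries, each above every Scr library. That mean of 0.483 ± 0.143 TPM (SD, n = 3) was below the filter, and with no filter the difference was 0.49 (adjusted p = 0.00858, limma). Abcc9 was 1.21, 0.867 and 0.887 TPM in siKlf4 SMCs, with a difference of -0.23 (interval -0.61 to 0.16, adjusted p = 0.339, limma). It stayed at 0.0547, 0.0695 and 0.0371 TPM in siKlf4 PDGFR-β+ cells, a range that overlapped Scr. Kcnj8 in siKlf4 PDGFR-β+ cells was still below each Scr SMC library. Over the 12 libraries the levels of both genes had a Pearson's r of 0.865, which describes mainly the gap between the cell types.

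Rgs5, a commonly used pericyte marker, was low and did not pass a test for siKlf4. In SMCs it was 0.828, 1.46 and 1.40 TPM in Scr and 1.04, 1.12 and 1.12 TPM in siKlf4 libraries. In PDGFR-β+ cells it was 1.74, 2.84 and 2.22 TPM in Scr and 2.17, 1.71 and 1.78 TPM in siKlf4 libraries. The groups overlapped in both. The differences were -0.08 (95% confidence interval -0.49 to 0.33, adjusted p = 0.760, limma) and -0.17 (interval -0.56 to 0.23, adjusted p = 0.462, limma). Vtn was listed at 0.0368, 0 and 0.0638 TPM in Scr SMCs and at 0 in the other 9 libraries, so it was above 0 in 2 of 12 libraries.

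**Figure D3:**
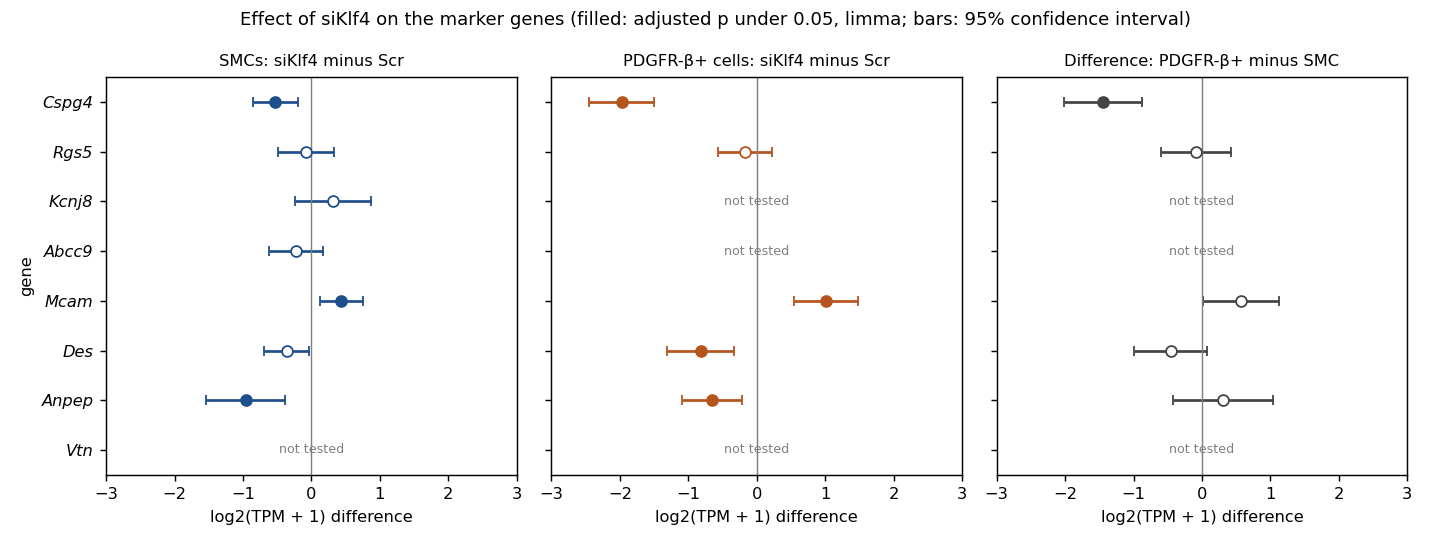
Difference of siKlf4 minus Scr on the log2(TPM + 1) scale for each marker gene in SMCs, in PDGFR-β+ cells, and the difference between them, with 95% confidence intervals and filled points where the adjusted p is under 0.05. Cspg4 lies at -1.97 in PDGFR-β+ cells and -0.53 in SMCs and is the 1 member whose effects differ, while Mcam lies to the right of 0 in both.

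Between the cell types, 1 of 5 members tested had a different siKlf4 effect, Cspg4, where 33% of 13032 genes were called by limma, 18.5% with a higher and 14.5% with a lower value in PDGFR-β+ cells. No member had a higher effect in PDGFR-β+ cells at the adjusted threshold, and 1, Mcam, had an unadjusted p under 0.05. The order of the markers after silencing was Anpep, Mcam, Cspg4, Kcnj8, Des, Rgs5 and Abcc9 in SMCs, with the ranges of Cspg4 and Kcnj8, Kcnj8 and Des, and Rgs5 and Abcc9 overlapping. In siKlf4 PDGFR-β+ cells it was Mcam, Cspg4, Anpep, Rgs5, Des, Kcnj8 and Abcc9, and of these neighbours the ranges of Des and Kcnj8 overlapped. Mcam then made up 60.8% of the summed TPM of the 8 genes in PDGFR-β+ cells, against 20.0% with Scr.

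The genes whose levels were most like each member over the 12 libraries were looked for among the 10386 genes that averaged 5 TPM or more. The libraries fall into 4 groups, so Pearson's r describes mainly the order of the group means. Cspg4 was most like Snrpn (r = 0.983), Kif1c and Mustn1, and Mcam most like Brms1 (r = 0.985), Dnmt1 and the replication gene Mcm4. Mcm4 had means of 24.8 and 40.2 TPM in SMCs and 48.3 and 104 TPM in PDGFR-β+ cells, with Scr and siKlf4. Anpep was most like Scara5 (r = 0.995), Dpt and Sparcl1. Dpt, which encodes the matrix protein dermatopontin and is a fibroblast marker, went from 81.6 to 42.6 TPM in SMCs and from 6.00 to 3.68 TPM in PDGFR-β+ cells. For the low members, Kcnj8 was most like Mark1, Rbpms and Per1, Des most like Copg2, Cr1l and Hagh, and Rgs5 most like Ckap4, Nr1d1 and Itga2, with r from 0.937 to 0.975.

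A wider panel of 24 mural genes gave the setting. In Scr libraries 15 could be tested, of which 4 were higher and 10 lower in PDGFR-β+ cells (limma), with a median of -0.94 beside -0.01 for all genes. Of all genes tested there, 23.3% were higher and 24.4% lower. The largest differences were Steap4, which encodes a metalloreductase, at -7.63 (533 TPM in Scr SMCs and 1.76 TPM in Scr PDGFR-β+ cells, adjusted p = 2.0e-07, limma), Angpt1 at -2.83 (adjusted p = 1.9e-05) and Agtr1a at -2.45 (adjusted p = 1.5e-05), and on the other side Gucy1b1, a subunit of the nitric oxide receptor, at 1.72 (adjusted p = 4.2e-04), Art3 at 1.43 (adjusted p = 0.00281) and Pdgfrb at 1.06 (adjusted p = 2.7e-05, limma). Of these, Angpt1 and Agtr1a had means under 1 TPM in Scr PDGFR-β+ cells and Gucy1b1 and Art3 in Scr SMCs, so they passed the filter through the group in which they were high. Higd1b, a marker often used for lung pericytes, was listed at 0 in all 12 libraries. With siKlf4 in SMCs, 13 could be tested, of which 0 were higher and 7 lower, with a median of -0.36 (limma, and 0 and 8 at an unadjusted p under 0.05). In PDGFR-β+ cells 13 could be tested, of which 3 were higher and 3 lower, with a median of -0.06. Of all genes tested with siKlf4, 15.6% were higher and 12.9% lower in SMCs, and 25.3% and 15.3% in PDGFR-β+ cells. The SMC count of lower genes was 4 without Scr replicate 2 and 4 without siKlf4 replicate 3. The largest falls in SMCs were in Agtr1a, an angiotensin II receptor gene (-1.11, adjusted p = 0.00525), the transcription factor gene Ebf1 (-0.76, adjusted p = 0.0134) and Cd248, which encodes endosialin (-0.62, adjusted p = 0.00335, limma). In PDGFR-β+ cells Angpt1, the ligand by which mural cells signal to endothelial Tek, rose by 1.29 (adjusted p = 4.3e-04, limma), from 0.559 to 2.81 TPM, and it passed the filter there through its siKlf4 libraries, which limits what the call can show. Foxc1 rose by 0.77 (adjusted p = 0.00129) and Art3 by 0.71 (adjusted p = 0.0491, limma). The Art3 call was lost without Scr replicate 1 (0.0729) and without siKlf4 replicate 1 (0.0996), 2 (0.103) or 3 (0.119), with median-ratio scaling (0.0885), with no filter (0.129), with a pseudocount of 0.1 (0.0577) and with eBayes without trend (0.0551).

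Ndufa4l2, a hypoxia-responsive mitochondrial gene used as a pericyte marker, fell the most of the panel in PDGFR-β+ cells. It was 45.3, 34.0 and 42.5 TPM in Scr and 2.94, 1.73 and 0.985 TPM in siKlf4 libraries, a difference of -3.90 (SE 0.24, adjusted p = 3.7e-05, limma). Its partner among pericyte markers, Cox4i2, was singled out after its values were seen. In SMCs Cox4i2 had means of 8.32 TPM with Scr and 9.32 TPM with siKlf4 (0.20, adjusted p = 0.583, limma). In PDGFR-β+ cells it was 1.14, 1.46 and 1.17 TPM in Scr and was listed at 0 in all 3 siKlf4 libraries. It was under the filter there and was not tested. Cd248 fell by 1.40 (adjusted p = 7.8e-05, limma). Pdgfrb, whose promoter drove the Cre behind the sorted Zs label, fell from 447 ± 25.5 to 339 ± 50.8 TPM (SD, n = 3), by 0.41 (adjusted p = 0.0218, limma), a call that was lost without Scr replicate 1 (0.0716), Scr replicate 3 (0.0519), siKlf4 replicate 2 (0.0745) or siKlf4 replicate 3 (0.0748), and with no filter (0.0569). In SMCs Pdgfrb was 214 ± 1.52 with Scr and 185 ± 12.6 TPM in siKlf4 libraries (SD, n = 3, adjusted p = 0.0566, limma). It passed as lower there with numbered libraries alone (0.0175), with the replicate block (0.0431), with a term for the unnumbered columns (0.0243) and without the unnumbered siKlf4 library (0.0305). Notch3, the mural Notch receptor, fell in SMCs from 17.2 to 13.2 TPM (-0.36, adjusted p = 0.0177, limma). That call was lost without Scr replicate 2 (0.0664) or siKlf4 replicate 3 (0.0610) and with the replicate block (0.0740). In PDGFR-β+ cells Notch3 was 7.73 with Scr and 7.77 TPM in siKlf4 libraries.

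**Figure D4:**
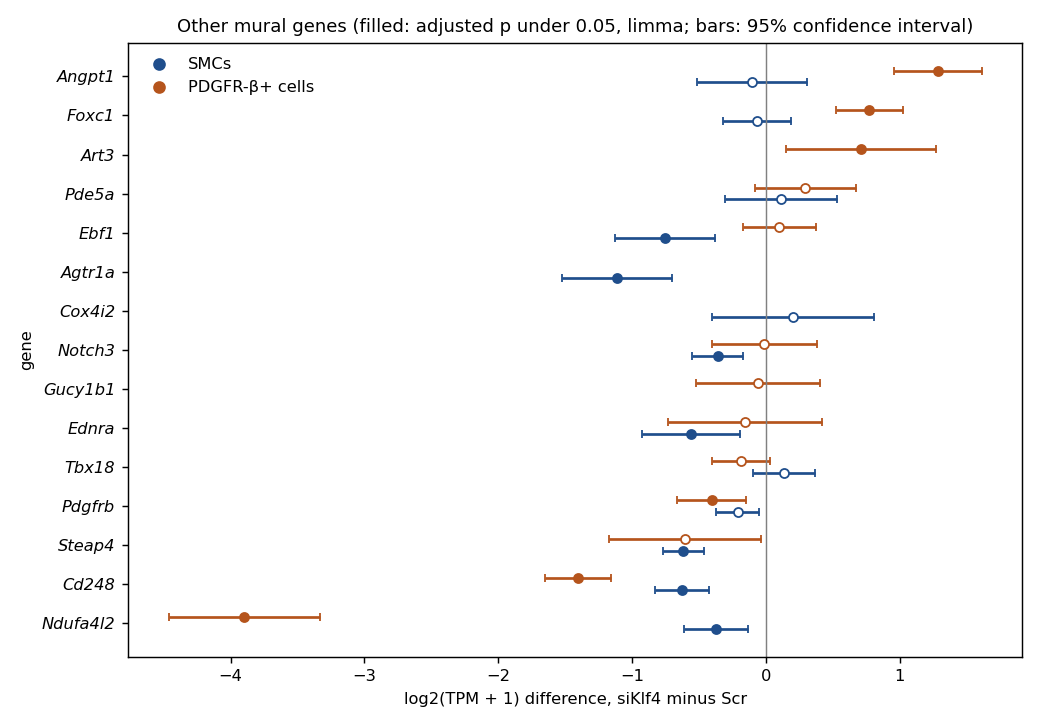
Difference of siKlf4 minus Scr on the log2(TPM + 1) scale for the mural panel genes that could be tested in SMCs (blue) or PDGFR-β+ cells (orange), with 95% confidence intervals and filled points where the adjusted p is under 0.05. All 7 filled SMC points lie below 0, while PDGFR-β+ cells have 3 above 0 and 3 below, Ndufa4l2 at -3.90 being the lowest.

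Genes that act with the members, or are paralogous to them, gave different counts in the cell types. Such counts do not by themselves show different effects. Of 21 tested, 5 were higher and 5 lower in SMCs, and 3 were higher and 12 lower in PDGFR-β+ cells (limma), with medians of -0.11 and -0.41. The shares over all genes tested were 15.6% higher and 12.9% lower in SMCs, and 25.3% and 15.3% in PDGFR-β+ cells. In SMCs these counts fell to 3 and 2 without Scr replicate 2 or without siKlf4 replicate 2, and to 4 and 1 without siKlf4 replicate 3. Itgav, which encodes the alpha V subunit of the integrins that bind vitronectin, rose in SMCs by 0.86 (adjusted p = 9.6e-04, limma), from 48.7 to 89.5 TPM, and fell in PDGFR-β+ cells by 0.51 (adjusted p = 0.0120, limma), from 121 to 84.8 TPM. The difference between cell types was -1.37 (adjusted p = 4.6e-05, limma). Nes, the filament partner of Des, rose in SMCs by 1.34 (adjusted p = 0.00104, limma), from 6.92 to 19.0 TPM. In PDGFR-β+ cells Nes went from 8.43 to 11.9 TPM, a difference of 0.46 (adjusted p = 0.0662, limma). It passed there with the replicate block (0.0246) and without Scr replicate 2 (0.0197). Of the paralogues of Rgs5, in PDGFR-β+ cells Rgs16 rose by 1.63 (adjusted p = 3.3e-04, limma), from 0.752 to 4.41 TPM, and Rgs2 by 1.32 (adjusted p = 0.00133, limma), from 1.72 to 5.72 TPM. Rgs16 passed the filter there through its siKlf4 libraries. In SMCs Rgs16 fell by 0.59 (adjusted p = 0.0375, limma), which was lost without either unnumbered library (0.0925 without Scr and 0.0847 without siKlf4), Scr replicate 2 (0.101) or siKlf4 replicate 3 (0.1002), with numbered libraries alone (0.138), with the replicate block (0.0864) and with no filter (0.0917). The collagen VI chain genes, whose product binds NG2, included Col6a3, which fell by 1.46 in PDGFR-β+ cells (adjusted p = 9.5e-05, limma), Col6a2, which fell there by 1.06 (adjusted p = 0.00200, limma), and Col6a1, which fell there by 1.05 (adjusted p = 5.2e-04, limma). In SMCs Col6a1 fell by 0.68 (adjusted p = 0.0135, limma) but not without siKlf4 replicate 2 (0.0513) or 3 (0.0506), and its effects were not shown to differ between the cell types (-0.38, adjusted p = 0.173, limma). Col6a2 had a difference of -0.45 in SMCs (adjusted p = 0.0778, limma). It passed there with numbered libraries alone (0.0148), the replicate block (0.0304), a term for unnumbered columns (0.00259) or without the unnumbered siKlf4 library (0.0378). Its effects were not shown to differ (-0.61, adjusted p = 0.0811, limma), but did without the unnumbered Scr SMC library (0.0387) or siKlf4 PDGFR-β+ replicate 1 (0.0285).

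Genes of other cell programmes were followed beside the markers. Over all genes tested, limma called 15.6% higher and 12.9% lower in SMCs, and 25.3% and 15.3% in PDGFR-β+ cells. Of 12 contractile genes tested, 9 were higher and 0 lower in siKlf4 SMCs (limma, 10 and 0 at an unadjusted p under 0.05), and their summed level was 2058 to 3079 TPM in Scr and 4612 to 5424 TPM in siKlf4 libraries. In PDGFR-β+ cells 6 were higher and 3 lower, with sums of 6656 to 7921 and 5934 to 6651 TPM, and the count of lower genes was 1 without Scr replicate 1, siKlf4 replicate 2 or siKlf4 replicate 3. Of the fibroblast genes, 4 of 8 were lower and 0 higher in siKlf4 SMCs (4 and 0 at an unadjusted p under 0.05), with sums of 3509 to 3958 TPM in Scr and 2997 to 3318 TPM in siKlf4 libraries, and 2 of 7 were lower and 0 higher in PDGFR-β+ cells (3 and 0), with sums of 3324 to 3991 and 2779 to 3721 TPM. Macrophage marker sums were 45.5 to 49.5 TPM in Scr and 24.9 to 29.6 TPM in siKlf4 libraries in SMCs and 35.4 to 37.0 and 29.0 to 33.8 TPM in PDGFR-β+ cells, while Ptprc, Adgre1, C1qa and Itgam were at or near 0. In SMCs most of this sum was Cd14, with means of 41.0 and 22.1 TPM, while Cd68 had means of 3.26 and 3.77 TPM. Of 3 macrophage genes tested in SMCs, 0 were higher and 1, Cd14, was lower (limma). Of 4 tested in PDGFR-β+ cells 1 was higher, Cd14, from 6.88 to 10.5 TPM (adjusted p = 0.00270, limma). There 2 were lower, Lyz2 from 19.0 to 11.3 TPM (adjusted p = 0.00538) and Csf1r from 2.28 to 0.775 TPM (adjusted p = 0.0138, limma). Csf1r passed the filter there through its Scr libraries. Endothelial marker sums were 6.60 to 8.29 TPM in Scr and 10.7 to 12.3 TPM in siKlf4 libraries in SMCs, and 17.9 to 21.8 and 17.0 to 19.3 TPM in PDGFR-β+ cells, most of it Egfl7 in SMCs and Kdr in PDGFR-β+ cells. Epithelial sums were at most 1.37 TPM in every library. The part of these programmes in the marker results was not tested.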

How the data were processed

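RNA of 12 libraries was sequenced from poly(A)-selected, stranded libraries. After trimming, the authors used HISAT2 for alignment to mm10, GENCODE mouse genes (release not given in the sources used here), and StringTie and ballgown for abundance. They deposited TPM values, per the file headers, in 1 table per cell type with 52636 genes, and each library sums to 1000000, so that a rise of abundant genes lowers all other values. No counts were analysed here, the depth reached is not given in the sources used here (the methods state only a target yield), and the authors' own tests (DESeq2 on counts) could not be repeated. Precision rests on the 3 libraries per group.

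Groups were taken from the labels. Here log2(TPM + 1) was fitted with limma 3.58.1 in R 4.3.3 (eBayes with trend), per cell type, keeping genes whose mean over the libraries compared reached 1 TPM. The difference between cell types was the interaction term over 12 libraries, for genes passing in both. P-values are two-sided and Benjamini-Hochberg adjusted over all genes tested, with a threshold of 0.05. Non-overlap means that every library of 1 group lies on 1 side of the other group. The procedure was tested on simulated data. The 8 genes and the gene lists were chosen with earlier results of these data known.

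Named genes were the 8 members, Klf4, defining genes of each cell type, the 3 largest changes per direction of the mural panel, the 2 largest of the partner list, and the 3 genes most correlated with each member. A gene of the partner list is not reported here and was left out of its counts. The contractile, fibroblast and marker lists are given by counts and sums. Markers of skeletal and cardiac muscle (sums of 1.34 to 2.93 TPM in all libraries) and of glia and melanocytes (12.9 to 28.4 TPM) were also checked. Guanylate cyclase genes Gucy1a1 and Gucy1b1 were matched by gene identifier. Positions come from GENCODE M21 and promoters from RefSeq (GRCm38.p6), in which all 8 members were found. Alternatives were a pseudocount of 0.1, no filter, a minimum of 5 TPM, median-ratio scaling, eBayes without trend, a replicate block, numbered SMC libraries alone, a term for unnumbered columns, and leaving out each library.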

Additional observations from a re-analysis of the deposited data

Results flagged for a closer look

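For 14 genes the siKlf4 effect was not the same in both cell types, by the interaction term over 12 libraries (limma, adjusted over 13032 genes). They were looked for among the 8 markers, Klf4, Acta2, Myh11, Notch3, Pdgfrb, Pdgfra, Col1a1 and the genes named for the largest siKlf4 changes of the mural panel and partner list. Genes named elsewhere, such as Cd14 and Kdr, were not part of this search. By the same test 33% of all genes were called. Many of the genes searched were chosen for large siKlf4 changes in these data, which favours a differing effect, and only those that passed are listed. Outside this search, 1 of 3 macrophage genes tested had a higher and 1 of 2 endothelial genes a lower effect in PDGFR-β+ cells. Values are the effect in PDGFR-β+ cells minus that in SMCs on the log2(TPM + 1) scale. Among the marker genes it was Cspg4, at -1.45 (SE 0.26, adjusted p = 0.00152), which was lower with siKlf4 in all 3 libraries of both cell types. Klf4 itself differed by -1.19 (SE 0.19, adjusted p = 6.9e-04), so the silencing was deeper where Cspg4 fell further, and the part of that in the Cspg4 difference was not tested.

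Of the mural panel, Ndufa4l2 differed by -3.53 (adjusted p = 9.3e-06), Cd248 by -0.78 (adjusted p = 0.00158), Angpt1 by 1.39 (adjusted p = 6.0e-04), Foxc1 by 0.84 (adjusted p = 0.00159) and Ebf1 by 0.86 (adjusted p = 0.00807, limma). Of the partner genes, Itgav differed by -1.37 (adjusted p = 4.6e-05), Rgs16 by 2.22 (adjusted p = 5.0e-05), Rgs2 by 1.34 (adjusted p = 8.5e-04), Col6a3 by -1.35 (adjusted p = 0.00209) and Nes by -0.88 (adjusted p = 0.0108, limma). Of the contractile genes, Acta2 differed by -1.30 (adjusted p = 6.0e-04) and Myh11 by -0.91 (adjusted p = 0.00385, limma). Each of these 14 calls held in every leave-one-out fit. Angpt1 and Rgs16 had means of 0.559 and 0.752 TPM in Scr PDGFR-β+ cells. They passed the filter there through their siKlf4 libraries, which limits what their calls can show.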

How the results depend on the processing

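Among the 8 markers, the fall of Cspg4 and the rise of Mcam in PDGFR-β+ cells, the Cspg4 difference between cell types, and the higher Cspg4 and lower Anpep of Scr PDGFR-β+ cells kept their direction and call in every alternative in which they could be tested. The other calls changed. The 3910 genes called in SMCs (28.5%) became 2216 to 3563 with 1 library left out. With a term for the unnumbered columns they became 5492 (40.1%, 21.9% higher and 18.2% lower). The share called in SMCs thus depended on how these columns were treated. The SMC count of markers higher went from 1 to 0 with no filter, median-ratio scaling, the replicate block or numbered libraries alone (0 to 1 with 1 library left out). The count lower went from 2 to 0 with no filter and to 1 at 5 TPM or with the block, and was 3 with eBayes without trend, where Des passed (0 to 2 with 1 library left out). With no filter, 1 marker was higher and 3 lower at an unadjusted p under 0.05 in limma. In PDGFR-β+ cells 2 instead of 1 were higher with no filter, the second being Kcnj8, and 1 instead of 3 were lower at 5 TPM (1 to 3 with 1 library left out), where fewer markers could be tested. The effect difference gave 0 higher (0 to 1 with 1 library left out, 1 without Scr PDGFR-β+ replicate 2) and 0 instead of 1 lower at 5 TPM, where Cspg4 could not be tested. For Scr levels, 2 higher became 1 with no filter or with numbered SMC libraries alone and 3 with eBayes without trend, where Rgs5 passed (1 to 3 with 1 library left out), and 1 lower became 3 with no filter (1 to 2 with 1 library left out). The Rgs5 effect difference of -0.09 turned to 0.029 with numbered SMC libraries alone, 0.048 without the unnumbered Scr SMC library and 0.035 without Scr PDGFR-β+ replicate 2 (-0.21 to 0.048 with 1 library left out), with adjusted p from 0.538 to 0.940 over its alternatives. The causes were not tested.

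Median-ratio scaling moved the median of all genes in PDGFR-β+ cells from 0.097 to -0.0032 and the shares called from 25.3% higher and 15.3% lower to 19.3% and 21.7%, and no marker there changed its call. The labels give replicate numbers, and the samples share only a number. In PDGFR-β+ cells same-numbered libraries did not deviate together, with correlations of 0.0732, -0.0158 and 0.0043. In SMCs the correlation was 0.107 for same and -0.107 for different numbers. With so few numbered SMC libraries per treatment these values mirror each other by construction, so they cannot settle pairing. With the replicate block, 5641 genes were called in PDGFR-β+ cells instead of 5559, with 1 marker higher and 2 lower, Anpep being lost (adjusted p = 0.0587), and 2853 in numbered SMC libraries, against 3965 in these without the block. Not every PDGFR-β+ library correlated best with its own number. TPM holds no depth, so the lowest values, Kcnj8 and Abcc9 in PDGFR-β+ cells and Vtn, have no counting error here.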
